A study of Mus musculus with 9 samples.

Results

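The genes described here are those of the sulfiredoxin, peroxiredoxin and thioredoxin system: Srxn1, Prdx1 to Prdx6, Txn1, Txnrd1 and Txnip. They were chosen by gene symbol, 10 of the 41388 genes in the table, and each symbol matched a single row. All 10 passed the minimum set for testing, a mean normalized count of at least 10, which 11599 genes reached.

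The RNA came from murine Tc17 cells, the CD8+ T cells that make IL-17, which were grown from sorted naive CD62L+CD44-CD8+ T cells of C57BL/6 mice aged 8 to 12 weeks. All cultures received plate-bound anti-CD3 (5 µg/ml), anti-CD28 (0.5 µg/ml), IL-2 (50 U/ml), TGF-β (0.5 ng/ml), IL-6 (30 ng/ml) and anti-IFN-γ (5 µg/ml) for 2 days. All 3 groups had the solvent DMSO at 0.2%, per the labels. The Ctrl group had it alone, the DMF group had 20 µM DMF added, and the DMF + GSH group 20 µM DMF with 50 µM GSH. DMF is dimethyl fumarate, an electrophile used as a drug in multiple sclerosis, and GSH is reduced glutathione, the main low-molecular-weight thiol of the cell. Each group had 3 libraries, numbered as replicates 1 to 3, with replicate 1 in preparation batch 1 and replicates 2 and 3 in batch 2. The study's methods speak in general of independent biological replicates, and neither they nor the labels say whether the numbers are separate mice, so the p-values measure the spread between these samples.

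Peroxiredoxins are abundant enzymes that reduce hydrogen peroxide and organic peroxides with a reactive cysteine. In the typical members the oxidized cysteine forms a disulfide that thioredoxin reduces, and thioredoxin reductase recharges thioredoxin with electrons from NADPH. When peroxide is in excess the cysteine can be oxidized further and the enzyme is inactivated, and sulfiredoxin (Srxn1) repairs it. Txnip binds reduced thioredoxin and holds it back. Genes for Srxn1, Prdx1, Txn1 and Txnrd1 are textbook targets of NRF2, the transcription factor that electrophiles such as DMF release from KEAP1. The first comparison asks how DMF moved this system, and the others ask what the values were when GSH was present with DMF.

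Each library held between 7671772 and 14511926 reads assigned to genes (median 11152111). Cd8a lay between 9317 and 13778 normalized counts in all 9 libraries and Cd4 at no more than 4.4, and the 5 genes of the CD8 T cell list summed to 21759 to 26588 with DMF and 21484 to 26446 in Ctrl. Within that list Cd8a was higher with DMF than in Ctrl in all 3 replicate numbers, Cd8b1 went both ways, and Cd3e, Cd3g and Cd3d were lower in all 3, Cd3g at 2303, 2811 and 2122 against 3593, 4186 and 2763. The cytokine genes Il17a and Il17f were present in every library. In the red cell list, which was looked at because red cells are rich in Prdx2, the 4 haemoglobin genes were at 0 throughout and Alas2 lay between 0 and 4.645. Of the platelet genes Pf4 was at 0 and Ppbp at 1.42 in Ctrl replicate 3 and 0 elsewhere. Ctrl replicate 3, the shallowest library, stood apart with Lyz2 at 119.4 and Csf1r at 58.3, against at most 10.7 and 5.83 in the others. Both markers of macrophages and monocytes that could be read thus reached at most 177.8 in sum in Ctrl (lowest 0), while the DMF libraries held 2.12 to 16.5 and those with GSH 11.7 to 14.3. Foxp3 was between 1035 and 2456 with DMF and between 463.3 and 935.4 in the other groups, and Il17f was 721.5 to 1790.9 with DMF against 2619 to 4058.4 in Ctrl and 2694.4 to 4549.5 with DMF + GSH. The part of these shifts in the results below was not tested. In bulk RNA a gene's lower level in each cell and fewer cells that express it cannot be told apart.

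Upstream sequence was taken for 9 of the 10 members from RefSeq (GRCm38.p6), as windows from 250 bases before to 50 after each annotated start, and Prdx6 was not among them. The core letters of the antioxidant response element, TGACNNNGC on either strand, occurred in 3 of the members' 11 windows, and in 12.4% of all 32851 windows. They are printed here because Srxn1, Prdx1 and Txnrd1 all changed with DMF, with the matched bases in capitals. In each of the 3 the match is on the opposite strand and therefore reads in reverse complement. The Srxn1 match begins 29 bases into the transcript, inside the first exon, at chr2:152105552-152105560. The Prdx1 match, 133 to 125 bases before the start, also fits the longer form TGACTCAGC, which 0.454% of windows hold. The Txnrd1 match, 92 to 84 bases before the start, belongs to the second of 3 annotated promoters. Prdx3, Prdx4, Txn1 and Txnip changed with DMF as well, and their windows do not hold these letters. Neither do those of Prdx2 and Prdx5, which did not pass the test.
Srxn1, chr2:152105542-152105571, plus strand: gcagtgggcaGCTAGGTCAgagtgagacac
Prdx1, chr4:116685410-116685529, plus strand: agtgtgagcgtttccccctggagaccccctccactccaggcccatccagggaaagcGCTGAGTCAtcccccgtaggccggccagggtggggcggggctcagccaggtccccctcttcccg
Txnrd1, chr10:82859058-82859177, plus strand: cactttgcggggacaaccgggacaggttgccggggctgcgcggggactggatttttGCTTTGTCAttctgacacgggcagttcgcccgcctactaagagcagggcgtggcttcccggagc

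DMF raised 6 of the 10 members and lowered 1. Srxn1 rose 3.09-fold, Txnrd1 1.79-fold, Txn1 1.42-fold, Prdx3 1.41-fold, Prdx4 1.31-fold and Prdx1 1.28-fold, whereas Txnip fell to 0.529 of its Ctrl level. Prdx2, Prdx5 and Prdx6 did not pass the test, which was limma on log2(normalized count + 1) with an adjusted p under 0.05. Among all genes tested 28.0% passed it, 14.6% as higher and 13.3% as lower. The members' median log2 fold change was 0.37 where that of all genes was 0.0052. With the replicate number as a block, Prdx6 passed as higher too (limma, adjusted p = 0.00334), beside 45.0% of all genes. The groups did not overlap in 7 of the 10 members, a property shared by 41.3% of all genes tested. The study used a stricter threshold, an adjusted p under 0.01 with a log2 fold change of 0.75 or more in either direction. By limma Srxn1 was the only member past it, against 2.89% of genes. In the limma fit with the block Txnrd1 and Txnip passed it too, which made 3 members against 6.8% of genes. The study applied that threshold to DESeq2 fits, and DESeq2 here also put 3 members past it. The share of all genes past it with DESeq2 is not given here.

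**Figure D1:**
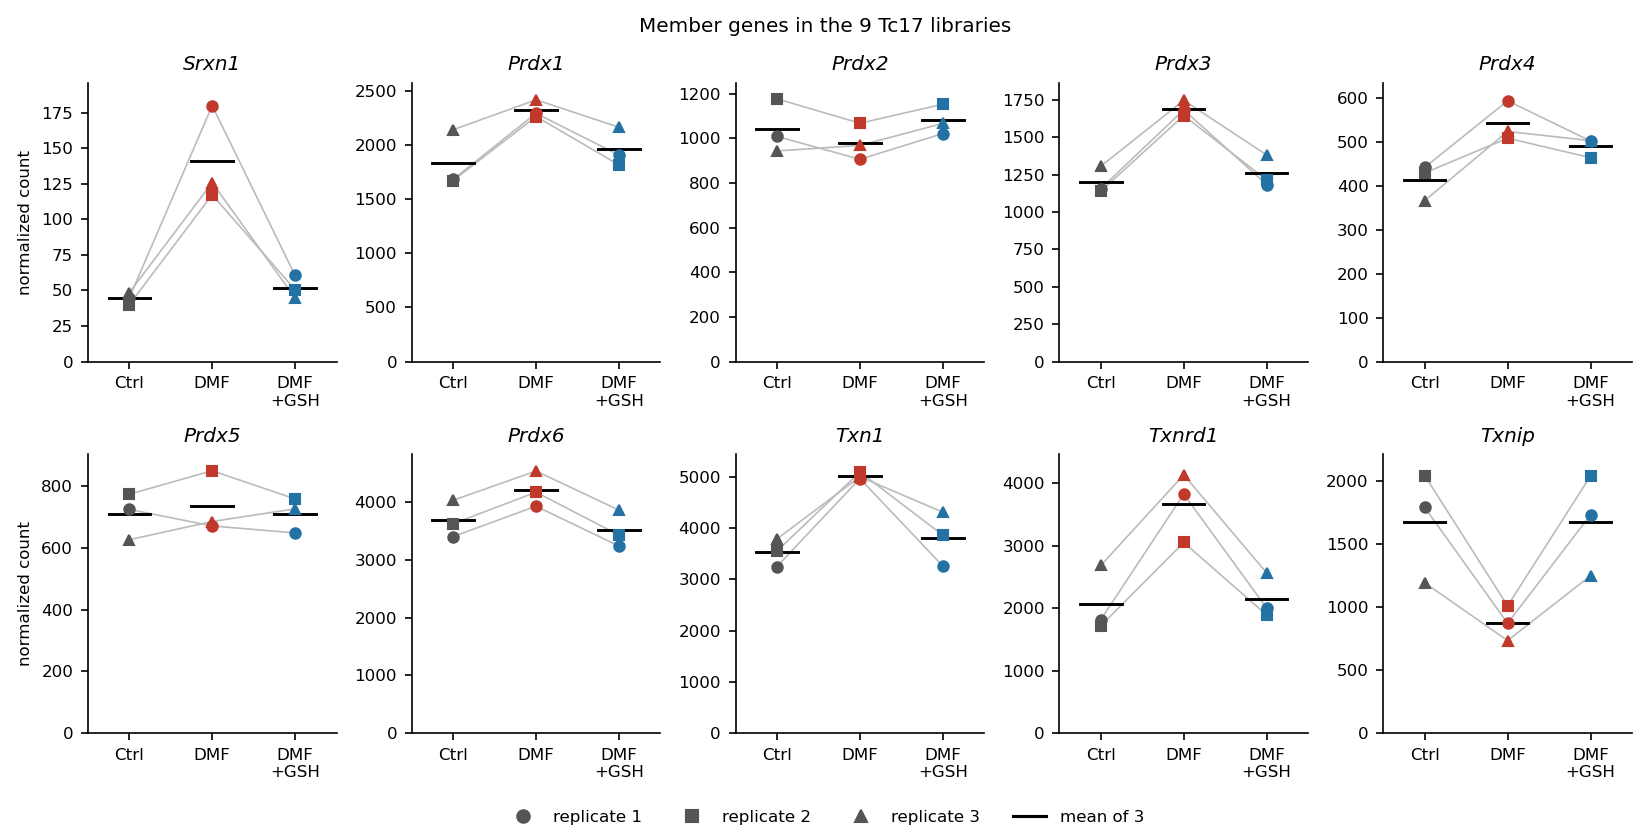
Normalized count (linear axis from 0) of each member in every library, by group, with symbols for the replicate numbers, grey lines joining libraries of the same number and black bars for the mean of 3. Srxn1, Prdx1, Prdx3, Prdx4, Txn1 and Txnrd1 are higher in all 3 DMF libraries than in any Ctrl library, and Txnip is lower in all 3.

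Srxn1, the sulfiredoxin (chr2:152105516-152111376, GRCm38), was the least abundant member and the one that changed most. Its normalized count was 44.7, 39.9 and 48.3 in Ctrl replicates 1, 2 and 3, and 180, 117 and 126 with DMF. With DMF + GSH it was 60.5, 50.5 and 44.7. All 3 DMF libraries stood above the other 6, and replicate 1 was the highest of them. The rise with DMF was 1.63 ± 0.17 on the log2 scale (fit ± SE, n = 3 libraries per group, adjusted p = 0.00173, limma). It was 1.99 within replicate number 1, the only pair of batch 1, and averaged 1.45 over the 2 pairs of batch 2. These values rest on 34 to 170 reads per library, far fewer than for the other members. The call was kept when any of the 9 libraries was left out (adjusted p at most 0.0272).

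Among the cytosolic peroxiredoxins, Prdx1 and Prdx2 differed in what they showed. Prdx1 (chr4:116685544-116700822), whose upstream sequence is printed above, had normalized counts of 1682, 1671 and 2140 in Ctrl and of 2293, 2263 and 2417 with DMF. The groups did not overlap, although Ctrl replicate 3 came close to the DMF libraries. Prdx1 rose by 0.35 ± 0.10 on the log2 scale (adjusted p = 0.0286), with paired differences of 0.45, 0.44 and 0.18. The call was lost without Ctrl replicate 1, Ctrl replicate 2, DMF replicate 1 or DMF replicate 3 (adjusted p of 0.132, 0.115, 0.139 and 0.102), and with the replicate block it held whichever library was left out (at most 0.00212).

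Prdx2 (chr8:84969587-84974834), the isoform best known from red cells, was at 1009, 1178 and 944 in Ctrl and at 907, 1068 and 969 with DMF. These ranges overlap in part. Its log2 difference was -0.09 with a 95% interval from -0.29 to 0.12 (adjusted p = 0.499), and it was negative in 2 of 3 replicate numbers. Of its exon length, 5.67% is shared with Junb (mean normalized count 4397, against 1035 for Prdx2) and 5.8% with Rnaseh2a (614), both on the opposite strand, and the sources used here do not say how the counting treated strand.

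Prdx3 (chr19:60864051-60874556) is the peroxiredoxin of the mitochondrial matrix, where Txn2 reduces it. Its normalized count was 1156, 1139 and 1305 in Ctrl and 1682, 1644 and 1746 with DMF, so that every DMF library exceeded every Ctrl library by a wide margin. The rise of 0.50 ± 0.08 (adjusted p = 0.00567) was the largest among the 6 peroxiredoxins with all libraries in the fit, although without Ctrl replicate 2 Prdx4 (0.45) was level with Prdx3 (0.44). The paired differences were 0.54, 0.53 and 0.42. Without DMF replicate 1 the adjusted p was 0.0556.

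Prdx4 (chrX:155323918-155340754), which works in the endoplasmic reticulum, was measured at 443, 430 and 367 normalized counts in Ctrl and at 595, 509 and 525 with DMF. Again the groups did not overlap. Prdx4 rose by 0.39 ± 0.09 on the log2 scale (adjusted p = 0.0120), by 0.42, 0.24 and 0.51 within the replicate numbers. Leaving out Ctrl replicate 1, DMF replicate 1 or DMF replicate 3 gave an adjusted p of 0.0585, 0.0833 and 0.0534.

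Prdx5 and Prdx6 are the members that sulfiredoxin is not known to repair. Prdx5 (chr19:6906697-6910106), found in mitochondria, peroxisomes and cytosol, had 725, 775 and 627 normalized counts in Ctrl and 672, 851 and 686 with DMF. Those libraries interleave, and the log2 difference was 0.05 with an interval from -0.20 to 0.30 (adjusted p = 0.753). It was -0.06 without Ctrl replicate 3 and -0.05 without DMF replicate 2. Trmt112 on the opposite strand, at a mean normalized count of 19.4, covers 19.1% of its exons.

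Prdx6 (chr1:161240112-161251219), which glutathione rather than thioredoxin reduces, was at 3404, 3627 and 4033 in Ctrl and at 3929, 4172 and 4539 with DMF. The groups overlapped, because replicate 3 was the highest library and replicate 1 the lowest in each of them. Within the replicate numbers DMF was higher by 0.21, 0.20 and 0.17 on the log2 scale. The fit gave 0.19 ± 0.07 with an interval from 0.03 to 0.35 and an adjusted p of 0.0711. The adjusted p with the replicate block was 0.00334, and over the 13 alternatives that kept all libraries it ran from 0.00334 to 0.155. It was 0.0441 without Ctrl replicate 3. Of its near copies, Prdx6b averaged 0.327 normalized counts and Prdx6-ps2 was at 0. Whether reads that match several places were counted is not known.

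Txn1 (chr4:57943373-57956411), the cytosolic thioredoxin, was at 3250, 3552 and 3788 normalized counts in Ctrl and at 4966, 5094 and 5002 with DMF. The 3 DMF libraries lay close together and well above Ctrl. Txn1 rose by 0.51 ± 0.08 (adjusted p = 0.00543), with paired differences of 0.61, 0.52 and 0.40, and its adjusted p was 0.0537 without DMF replicate 1.

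Txnrd1 (chr10:82833951-82897712), the selenoprotein that reduces Txn1, was at 1816, 1717 and 2682 in Ctrl and at 3823, 3049 and 4132 with DMF. Ctrl replicate 3 was the highest Ctrl library, yet lower than any DMF library. The rise was 0.84 ± 0.18 on the log2 scale (adjusted p = 0.0110), the largest after Srxn1, and 1.07, 0.83 and 0.62 within the replicate numbers. Batch 2 alone averaged 0.73. Without Ctrl replicate 1, DMF replicate 1 or DMF replicate 3 the adjusted p was 0.0692, 0.0809 and 0.0546. The spread within groups followed the replicate numbers, and with the block the SE was 0.07 in place of 0.18.

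Txnip (chr3:96557957-96561883), an alpha-arrestin that binds thioredoxin and also restrains glucose uptake, moved the other way. It was at 1788, 2040 and 1190 normalized counts in Ctrl and at 870, 1008 and 733 with DMF. Every DMF library was below every Ctrl library, and replicate 3 was the lowest of each group. Txnip fell by 0.92 on the log2 scale (SE 0.22, adjusted p = 0.0157), with paired differences of -1.04, -1.02 and -0.70. Leaving out replicate 1 or 2 of Ctrl gave an adjusted p of 0.0820 and 0.0621, and leaving out replicate 1 or 3 of DMF gave 0.0911 and 0.0706. With the replicate block the SE was 0.07 and the call held whichever library was left out. An antisense gene, Gm15441, overlaps 19.4% of the Txnip exons but averaged only 4.01 normalized counts.

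Txnip is known to be driven by MondoA or ChREBP with Mlx through carbohydrate response elements, and its upstream sequence is shown for that reason. The plain E-box CACGTG (7.15% of all windows, and found in the Prdx4 window) is not in the Txnip window. The paired form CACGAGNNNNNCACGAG, whose letters were taken from the Txnip promoter after that search and so are no finding there, lies 85 to 69 bases before the start and occurred in 1 of the 32851 windows. The 200 bases before the start are given with that match in capitals.
Txnip, chr3:96557757-96557956, plus strand: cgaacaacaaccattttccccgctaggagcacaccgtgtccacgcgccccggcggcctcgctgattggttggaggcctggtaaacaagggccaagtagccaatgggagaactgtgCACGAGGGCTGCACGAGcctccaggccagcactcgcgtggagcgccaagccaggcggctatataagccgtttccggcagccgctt

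Ctrl replicate 3, with its Lyz2 and Csf1r reads, had the highest Ctrl level of Srxn1, Prdx1, Prdx3, Prdx6, Txn1 and Txnrd1 and the lowest of Prdx2, Prdx4, Prdx5 and Txnip. Without it 8 of the 10 members passed, Prdx6 being the one gained, and 32.7% of all genes. In contrast, 1 member passed without DMF replicate 1, 3 without Ctrl replicate 1, 3 without DMF replicate 3 and 5 without Ctrl replicate 2. The whole table moved with them, from 28.0% of genes passing to 0.948%, 5.41%, 8.22% and 10.0%.

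The plot of differences by replicate number gives the pairs of each member in the 3 comparisons.

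**Figure D2:**
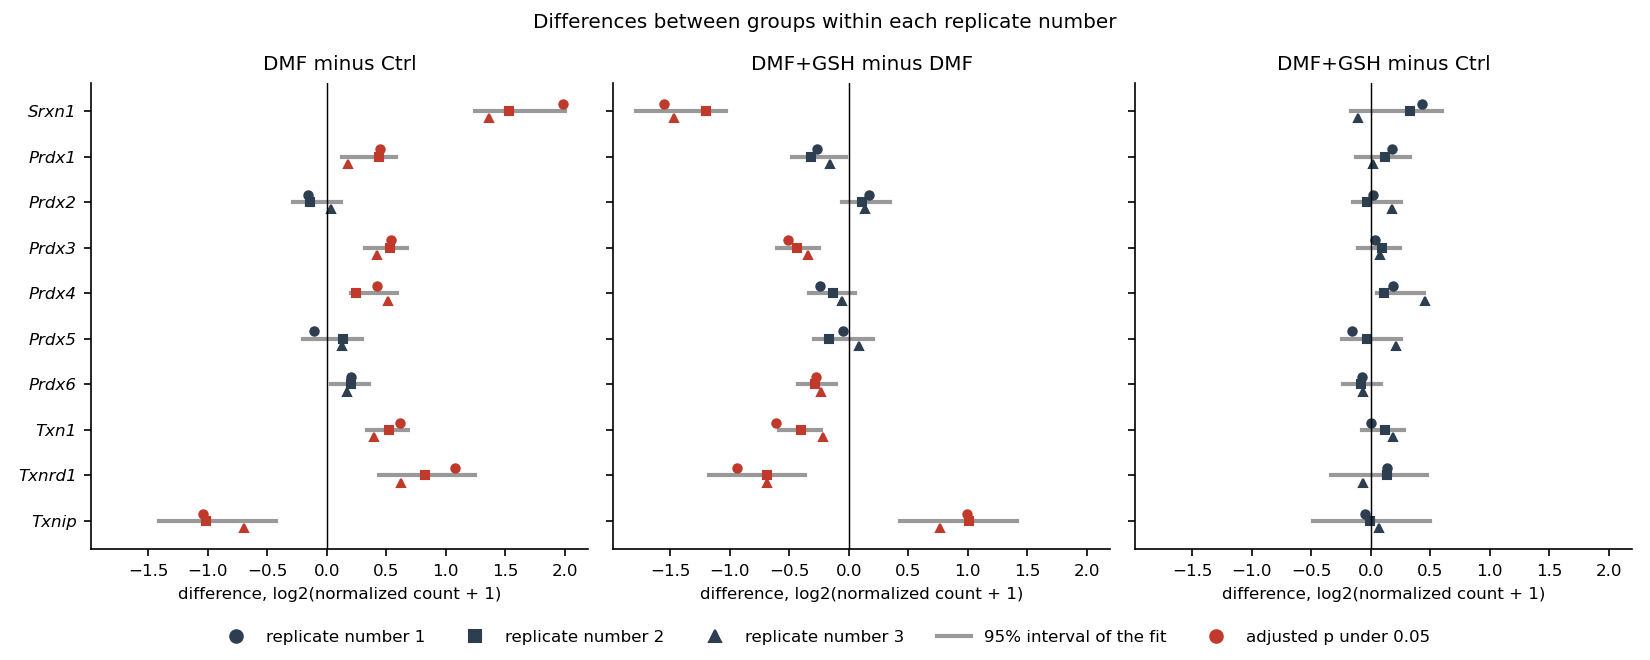
Difference in log2(normalized count + 1) between groups within each replicate number (symbols) with the 95% interval of the fit (grey bars) for the 3 comparisons, red where the adjusted p was under 0.05. In DMF minus Ctrl the Srxn1 points lie from 1.36 to 1.99 and the Txnip points from -1.04 to -0.70, and in DMF+GSH minus Ctrl the intervals of 9 members include 0.

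When GSH was added together with DMF, 5 members were lower and 1 higher than with DMF alone. No group had GSH without DMF, so an effect of GSH by itself and a loss of the DMF effect cannot be told apart. Srxn1 fell by 1.41 on the log2 scale, Txnrd1 by 0.77, Prdx3 by 0.43, Txn1 by 0.41 and Prdx6 by 0.26, and Txnip rose by 0.92. Of all genes tested 22.3% passed, 9.99% as higher and 12.4% as lower. The members' median was -0.26, where that of all genes was -0.0017. In the fit with the replicate block Prdx1 was lower too (limma, adjusted p = 0.00257), beside 41.5% of all genes passing. Groups that did not overlap were found in 8 of 10 members and in 38.3% of all genes tested. By limma Srxn1 alone met the study's threshold, as 0.543% of genes did. With the replicate block Txnrd1 and Txnip joined it, against 5.69% of genes. DESeq2, the tool the study used, put as many members past it as the block did. This comparison shares its DMF libraries with the one against Ctrl, so the values of both are side by side and are not independent of each other.

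The Srxn1 count with GSH, given above, did not overlap with that of DMF alone. The fall of 1.41 ± 0.17 (adjusted p = 0.00630) was seen in all 3 replicate numbers, as -1.56, -1.20 and -1.47. Its adjusted p became 0.0591 when DMF replicate 1 was left out and 0.0600 when DMF + GSH replicate 1 was.

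Txnrd1 was at 1999, 1888 and 2562 normalized counts with DMF + GSH, each below every DMF library. Its fall was 0.77 ± 0.18 (adjusted p = 0.0182), and -0.94, -0.69 and -0.69 within the replicate numbers. Txnip was at 1728, 2036 and 1247 with DMF + GSH, each above every DMF library. It rose by 0.92 ± 0.22 (adjusted p = 0.0191), or by 0.99, 1.01 and 0.77 within the numbers. Leaving out DMF replicate 1, DMF replicate 3, DMF + GSH replicate 1 or DMF + GSH replicate 2 brought the adjusted p of Txnrd1 to 0.122, 0.0829, 0.107 and 0.0792, and that of Txnip to 0.117, 0.0856, 0.106 and 0.0793.

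Txn1 was at 3259, 3862 and 4310 with DMF + GSH and fell by 0.41 ± 0.08 (adjusted p = 0.0124). The pairs differed by -0.61, -0.40 and -0.21, the smallest in replicate 3. Prdx3 was at 1183, 1213 and 1381 and fell by 0.43 ± 0.08 (adjusted p = 0.0116). Without DMF replicate 1, DMF replicate 3, DMF + GSH replicate 1 or DMF + GSH replicate 2 the adjusted p was 0.101, 0.0584, 0.0923 and 0.0570 for Txn1 and 0.0988, 0.0602, 0.0908 and 0.0570 for Prdx3.

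The remaining peroxiredoxins gave smaller differences between DMF + GSH and DMF. Prdx6, at 3239, 3429 and 3862 with DMF + GSH, was below all 3 DMF libraries and fell by 0.26 ± 0.07 (adjusted p = 0.0303). Its adjusted p was 0.0543 with no minimum, 0.0660 with no batch term, 0.0526 without Ctrl replicate 1, and 0.127 to 0.143 when replicate 1 or 3 of DMF or replicate 1 or 2 of DMF + GSH was left out.

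Prdx1 was at 1906, 1816 and 2163, also below every DMF library. Its difference was -0.25 ± 0.10 with an adjusted p of 0.103, which was 0.00257 with the replicate block, and ran from 0.00257 to 0.164 over the alternatives that kept all libraries. It was 0.0413 without Ctrl replicate 3.

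Prdx4, at 503, 465 and 504, was below every DMF library and above every Ctrl library. It differed from DMF by -0.14 (interval -0.34 to 0.05, adjusted p = 0.251). Prdx2, at 1022, 1154 and 1068, differed by 0.14 (interval -0.06 to 0.34, adjusted p = 0.279), and Prdx5, at 649, 760 and 727, by -0.04 (interval -0.29 to 0.20, adjusted p = 0.807).

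Against Ctrl, no member passed with DMF + GSH, nor did any other gene tested by limma, edgeR or DESeq2 with group and batch as terms. At an unadjusted p under 0.05 there were 222 of 11599 genes by limma (1.91%), 213 by edgeR and 100 by DESeq2, and among the members there was Prdx4. Without Ctrl replicate 3 there were 415 by limma, and with the replicate block 599 by limma and 626 by edgeR. With the block 4 genes passed by limma (0.0345%) and 14 by edgeR at the adjusted p, of which none was a member. Leaving out a library moved the limma count to between 0 (Ctrl replicate 1 or DMF + GSH replicate 3 left out) and 16 (DMF replicate 2 left out), including 15 when DMF replicate 1 and 10 when DMF + GSH replicate 1 was the one omitted, 6 for Ctrl replicate 3 and 1 for replicate 2 of Ctrl or of DMF + GSH, with no member among them. Prdx4 was higher with DMF + GSH than in Ctrl in all 3 replicate numbers, by 0.18, 0.11 and 0.46, and its interval ran from 0.06 to 0.44 (unadjusted p = 0.0166, limma, no longer small once adjusted). No other member had groups that did not overlap here, where 4.47% of all genes tested had that property. The Srxn1 difference was 0.22 with an interval from -0.16 to 0.60, and its pairs were 0.43, 0.33 and -0.11. For Txnip the difference was 0.01 with the widest interval of the 10, from -0.48 to 0.50, and for Txnrd1 it was 0.07, from -0.33 to 0.47. Those of Prdx1, Prdx2, Prdx3, Prdx5, Prdx6 and Txn1 were 0.11, 0.06, 0.07, 0.01, -0.07 and 0.10. The lack of calls does not show that the 2 groups were equal, and the intervals give the differences these libraries leave possible.

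To compare genes with each other, levels were expressed per length, as RPKM. This is the reads of a gene scaled to its exon length and to the library's total. The length is that of all annotated exons of a gene together, 3043 bases for Prdx1 and 1478 for Prdx3. It can exceed that of the transcripts present, and the order and shares below depend on it. In normalized counts Prdx1 was above Prdx3 in Ctrl (means 1831 and 1200). In Ctrl, Txn1 was the most abundant member at 310 ± 22.4 RPKM (SD, n = 3), and Srxn1 the least at 1.45 ± 0.13. Between them stood Prdx3 at 75.0, Prdx6 at 70.9, Prdx1 at 55.5, Txnip at 49.5, Prdx2 at 31.6, Prdx5 at 30.6, Txnrd1 at 26.97 and Prdx4 at 18.1 RPKM. The ranges of Prdx3 and Prdx6 overlapped, as did those of Prdx1 and Txnip, Txnip and Prdx2, Prdx2 and Prdx5, and Prdx5 and Txnrd1, so that these neighbours in the order were not set apart by their spread. With DMF, Txnrd1 stood at 46.9 RPKM and Txnip at 25.3, where in Ctrl Txnip was the higher.

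The 6 peroxiredoxins together summed to 282 ± 11.6 RPKM in Ctrl, 337 ± 7.73 with DMF and 292 ± 17.7 with DMF + GSH. Prdx3 made up 26.6% of that sum in Ctrl and 30.9% with DMF, and its range of 29.9% to 31.6% with DMF lay above that of 25.4% to 27.6% in Ctrl. Prdx2 went from 11.3% to 8.67%, with ranges of 9.67% to 12.8% and 8.25% to 9.43%. The RPKM ratio of Srxn1 to Prdx1 was 0.0263 in Ctrl, 0.0656 with DMF and 0.0289 with DMF + GSH. That of Txnip to Txn1 was 0.161, 0.0583 and 0.151. These ratios restate the changes of their genes and were not tested separately.

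**Figure D3:**
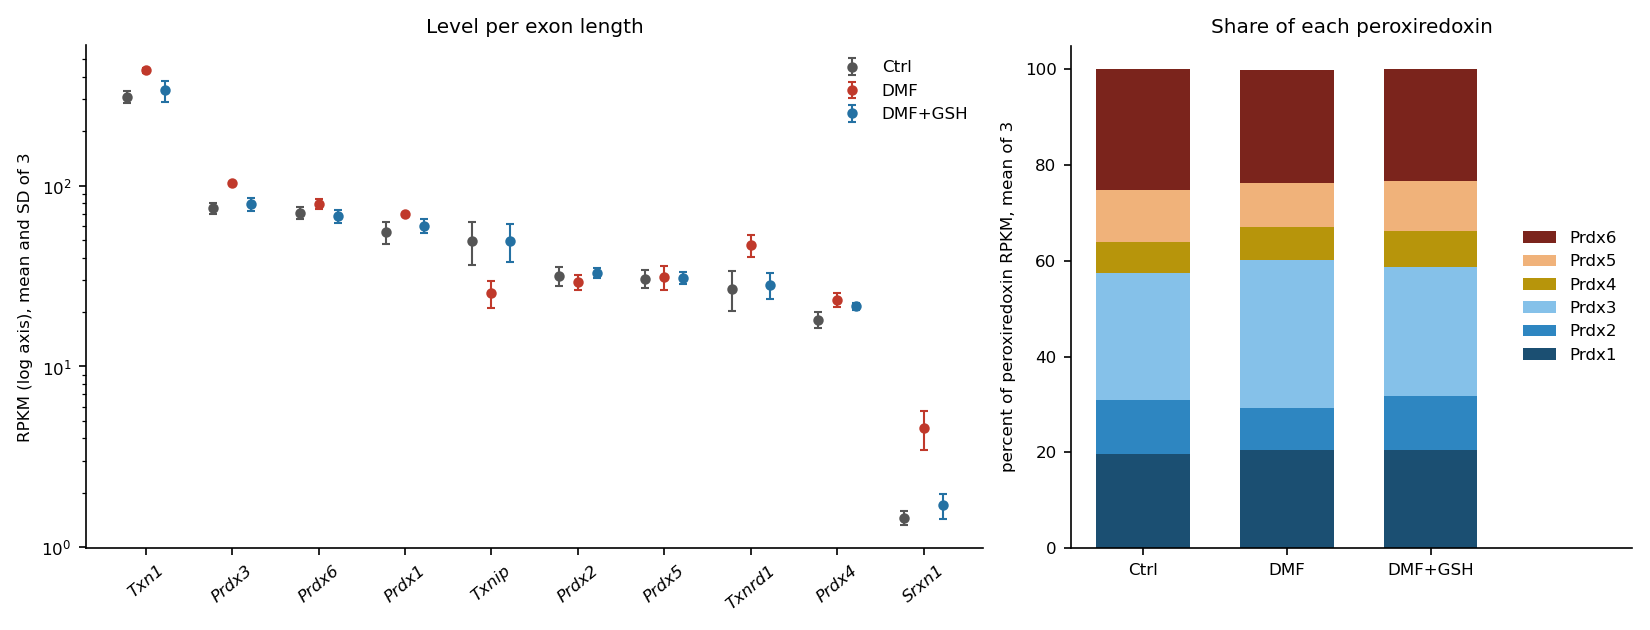
Left, RPKM of each member (log axis), mean and SD of 3 libraries per group, ordered by the Ctrl mean from Txn1 (310) to Srxn1 (1.45). Right, mean share of each peroxiredoxin in the sum of the 6 in percent, where the Prdx3 share is 26.6% in Ctrl and 30.9% with DMF.

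The mitochondrial counterparts of the thioredoxin pair were measured in the same fit. Txn2, the mitochondrial thioredoxin that serves Prdx3, was at 1209, 1354 and 1482 normalized counts in Ctrl and 1816, 1730 and 1983 with DMF. The DMF + GSH libraries had 1189, 1331 and 1527. Txn2 rose by 0.45 ± 0.09 with DMF (adjusted p = 0.00822) and was lower by 0.46 when GSH was present (adjusted p = 0.0124). Txnrd2, its reductase, was at 250, 212 and 239 in Ctrl and 296, 285 and 297 with DMF, a rise of 0.33 ± 0.10 (adjusted p = 0.0373). That call held in 3 of the 9 fits that leave out a library (adjusted p up to 0.141) and in 7 of 9 with the block, and the adjusted p reached 0.0739 over the alternatives that kept all libraries. Txnrd3, a thioredoxin and glutathione reductase best known from testis, was low, at 24.9, 34.4 and 37.0 in Ctrl and 78.3, 55.6 and 59.0 with DMF. Its rise was 0.98 ± 0.23 (adjusted p = 0.0143). All 3 genes were higher in every DMF library than in any Ctrl library. In this comparison 28.0% of all genes tested passed, and in 41.3% the groups did not overlap.

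Arrdc4, the closest relative of Txnip, was at 26.0, 24.1 and 7.11 normalized counts in Ctrl, at 13.7, 8.56 and 4.84 with DMF, on as few as 5 reads, and at 25.3, 26.7 and 12.6 when GSH was present too. Its log2 difference with DMF was -0.91 (interval -1.95 to 0.12, adjusted p = 0.164). Its adjusted p with the replicate block was 0.0302. Between DMF + GSH and DMF its difference of 1.20 had an adjusted p of 0.0877, and of 0.00680 with the block.

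Of the 82 other genes of the pathway, listed in 8 groups, 71 reached the minimum for testing. With DMF 20 of them rose and 7 fell, and 44 did not pass, with a median log2 fold change of 0.14. These 27 of 71 stand beside the 28.0% of all genes tested. In the fit with the replicate block 29 rose and 15 fell, where 45.0% of all genes passed. Without Ctrl replicate 1, Ctrl replicate 2, DMF replicate 1 or DMF replicate 3, 4, 7, 0 and 5 of them passed, where 5.41%, 10.0%, 0.948% and 8.22% of all genes did. With the block 34 to 44 did, whichever library was left out.

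Of the 18 other thioredoxins and reductases tested, 7 rose and none fell (median 0.15), beside 14.6% of all genes as higher and 13.3% as lower. Beside Txn2, Txnrd2 and Txnrd3 they were Txndc5, a disulfide isomerase of the endoplasmic reticulum (0.55), Txnl4a (0.52), Txnl1 (0.41) and Txndc17 (0.40). Txnl1 is a proteasome-bound thioredoxin, and Txnl4a has the thioredoxin fold but is a part of the spliceosome. When the replicate number was a block, 9 passed as higher and 3 as lower, where 45.0% of all genes passed.

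Among the 4 glutaredoxins, which use glutathione in place of thioredoxin reductase, 2 rose and 1 fell. Of all genes tested 14.6% passed as higher and 13.3% as lower. Glrx3 (0.42) and Glrx5 (0.47), both carriers of iron-sulfur clusters, rose. Glrx, the cytosolic glutaredoxin, fell by 0.59, from 504, 456 and 432 in Ctrl to 313, 370 and 251 with DMF. Among 7 clients of thioredoxin tested 1 passed, beside 28.0% of all genes tested. That gene was Map3k5, the kinase ASK1 that thioredoxin holds inactive. It fell by 0.84 ± 0.15 (adjusted p = 0.00689), from 1333, 1522 and 1143 to 734, 861 and 637, and was 1294, 1301 and 978 with DMF + GSH. The ribonucleotide reductase and methionine sulfoxide reductase genes of that list that were tested did not pass, but Rrm2, a ribonucleotide reductase subunit at 0.21, went from an adjusted p of 0.119 to 0.00293 with the block. None of the 6 genes tested among the arrestin relatives of Txnip and the Mlx factors passed by limma, beside 28.0% of all genes. With the replicate block 1 was higher and 2 were lower, beside 45.0% of all genes passing.

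All 3 sestrins, regulators of the antioxidant response and of mTORC1, changed, in different directions. Sesn2 was at 158, 163 and 216 in Ctrl and 414, 250 and 381 with DMF, and rose by 0.94 ± 0.21 (adjusted p = 0.0120). Sesn3 was at 2962, 3418 and 2560 in Ctrl and 1456, 1682 and 1234 with DMF, and fell by 1.03 ± 0.16 (adjusted p = 0.00543), with paired differences of -1.02, -1.02 and -1.05. Sesn1 was at 995, 1180 and 756 against 522, 734 and 473, and fell by 0.76 ± 0.21 (adjusted p = 0.0258). For none of the 3 did the DMF and Ctrl libraries overlap. Of all genes tested 28.0% passed and 41.3% did not overlap.

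The selenoprotein machinery that Txnrd1 needs showed 3 of 9 genes higher and none lower, beside 28.0% of all genes passing. With the block 3 were higher and 1 lower, beside 45.0% of all genes passing. The lower one was Secisbp2l at -0.19 (adjusted p of 0.105 without and 0.0179 with the block). The 3 that were higher without the block were Trnau1ap (0.52) and Eefsec (0.28), which serve the insertion of selenocysteine, and Sephs2 (0.50). Sephs2 is the selenophosphate synthetase, itself a selenoprotein. Among the 6 peroxide and superoxide enzymes tested, the mitochondrial Sod2 (0.66), the cytosolic Sod1 (0.33) and Gpx1 (0.25) rose, and catalase (Cat) fell by 0.30, beside 28.0% of all genes passing. With the block 3 were higher and 2 lower, beside 45.0%. Gpx4, at -0.23, had an adjusted p of 0.150 and of 0.0430 with the block.

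Of the 18 other NRF2 targets tested, 4 rose and 2 fell (median 0.21), beside 28.0% of all genes passing. Those that rose were the pentose phosphate genes G6pdx (0.27), Pgd (0.26) and Tkt (0.28), which supply NADPH or its precursors, and the exporter Abcc1 (0.28). Taldo1, also of the pentose phosphate pathway, was at -0.03 (adjusted p = 0.726). Gstm1 (-0.74) and Ugdh (-0.25) fell. Nqo1 averaged 9.72 normalized counts in Ctrl and 14.6 with DMF, with a log2 difference of 0.60 ± 0.41 (adjusted p = 0.295). The 4 listed genes that were not tested for low counts include Slc7a11. The block gave 9 of the list as higher and 3 as lower, beside 45.0% of all genes. Of the pathway genes named as rising or falling with DMF, Txnrd2, Gpx1, Gstm1, Abcc1 and Ugdh lost the call under 1 or more alternatives that kept all libraries, with an adjusted p of 0.0543 (Ugdh) to 0.0783 (Gpx1).

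**Figure D4:**
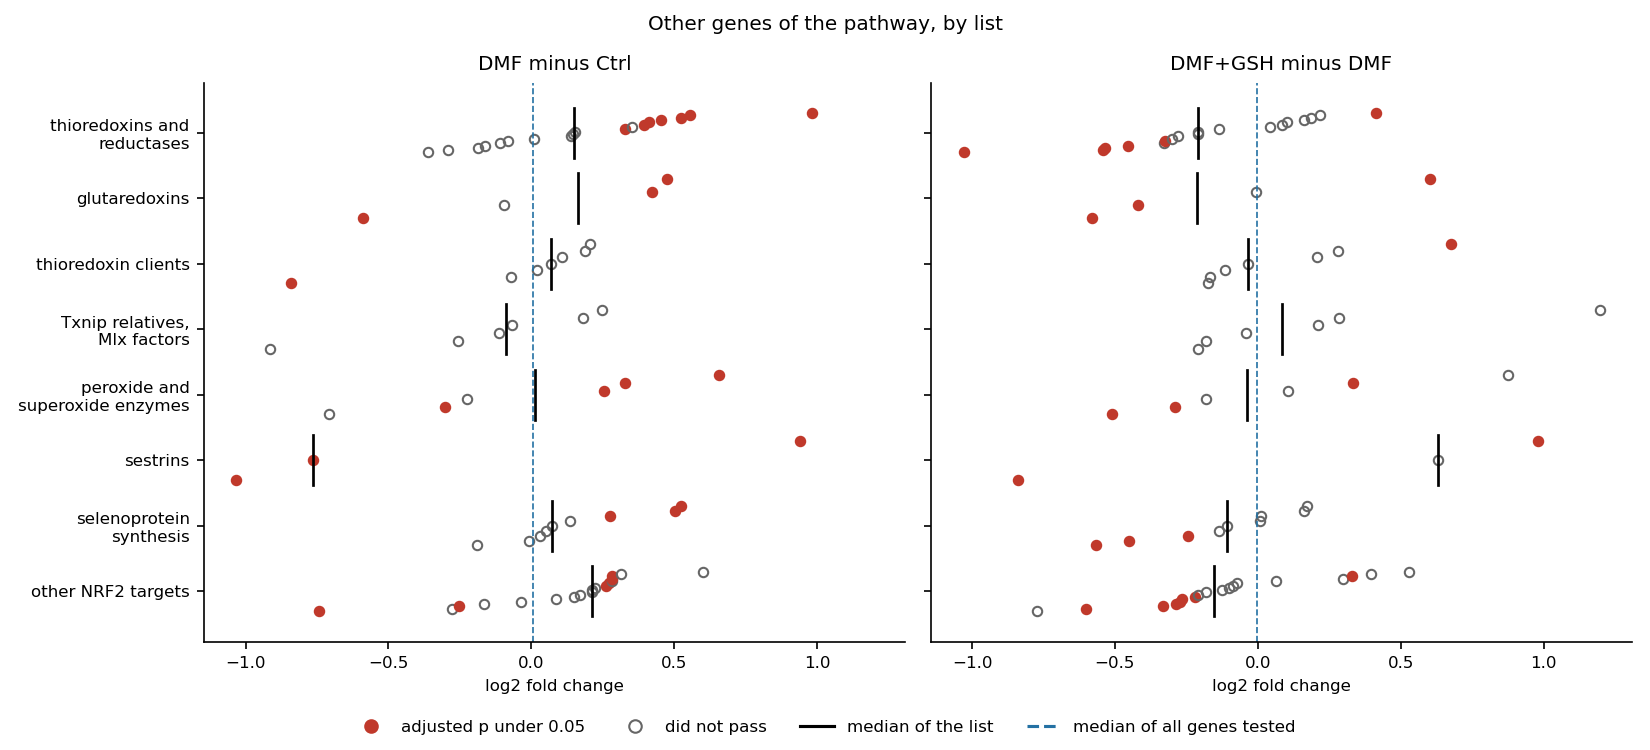
Log2 fold change of each tested gene of the 8 pathway lists in DMF minus Ctrl and in DMF+GSH minus DMF, filled red where the adjusted p was under 0.05, with the median of each list (black) and of all genes tested (dashed). The 3 sestrins lie at -1.03, -0.76 and 0.94 on the left.

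Between DMF + GSH and DMF, 6 of the 71 pathway genes were higher and 19 lower, with a median of -0.12 (all genes -0.0017, 22.3% passing). Under the block 13 were higher and 28 lower, where 41.5% of all genes passed. Txnrd3 (-1.03), Sesn2 (-0.84), Glrx5 (-0.58), Sephs2 (-0.57), Txnl4a (-0.54), Txndc5 (-0.53) and Sod2 (-0.51) were lower with GSH, and Sesn3 (0.98), Map3k5 (0.68), Glrx (0.60), Txndc16 (0.41), Cat (0.33) and Ugdh (0.33) were higher. The NRF2 targets Hmox1 (-0.60) and Gclc (-0.27) passed here. Their log2 differences between DMF and Ctrl were 0.31 and 0.21 and did not pass. The Sesn1 difference was 0.63 with an adjusted p of 0.0580, and of 1.83e-06 with the block. The Txnrd2 difference was -0.28 on the log2 scale, with an adjusted p of 0.0713 and of 0.0243 with it. The other genes that were lower were Txn2, Trnau1ap, Glrx3, Abcc1, Txnl1, Gpx1, G6pdx, Tkt, Eefsec and Pgd, from -0.46 to -0.22. Under 1 or more alternatives that kept all libraries the calls of Txnl1, Txndc16, Gpx1, Eefsec, Trnau1ap, Hmox1, Gclc, Pgd and Tkt were lost, with an adjusted p of 0.0510 (Trnau1ap) to 0.0993 (Eefsec). Without DMF replicate 1, DMF replicate 3, DMF + GSH replicate 1 or DMF + GSH replicate 2, 0, 0, 0 and 1 of the 71 passed, where 0.129%, 0.922%, 0.0862% and 1.23% of all genes did. Without Ctrl replicate 1 it was 16, and 15.1% of all genes. Under the block 29 to 42 passed, whichever library was left out. Against Ctrl, none of the 71 passed with DMF + GSH by limma, edgeR or DESeq2, and 0 had an unadjusted p under 0.05 by limma.

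Across the 9 libraries, after subtraction of the mean of each replicate number from log2(normalized count + 1), Srxn1 and Txnrd1 correlated with a Pearson's r of 0.995, Srxn1 and Prdx3 with 0.982 and Srxn1 and Txnip with -0.978. Prdx5 correlated with Srxn1 at 0.142. The values describe 9 libraries of 3 treatments, so that any gene that differs between DMF and the other groups scores highly. The genes with the most similar pattern to Srxn1 were Tmed5 (0.998), Nom1, Srsf1, Xpo5 and Tmbim1 (each 0.996). For Txnrd1 they were Hspa4, Psme3, Prmt5, Utp18 and Abce1, each at 0.998. For Txnip they included Gm12534 (0.999), Ulk1 (0.998) and Trim56 and Dgka (both 0.997).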

How the data were processed

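RNA-Seq of 9 libraries was analysed, with treatment, replicate number and batch read from the sample titles. Per the labels and methods, the authors aligned reads of 50 bases to GRCm38 with STAR 2.4.0b and counted them per gene. The values they deposited are counts divided by a size factor per library, a signal called normalized count here. Every nonzero value was a whole multiple of its library's smallest one (100% within a tolerance of 0.01 reads), so whole reads were recovered. The deposited table also holds the authors' own comparison of 2 groups, as a log2 fold change, a test statistic (score) and p-values, and none of these was used. The sources used here do not give how strand and multi-mapping reads were treated.

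The test was limma-trend (limma 3.58.1 under R 4.3.3) with group and batch as terms, run jointly for all libraries on log2(normalized count + 1). It covered 11599 genes whose mean normalized count was 10 or more, with Benjamini-Hochberg adjustment over all of them. Fold changes on this scale understate those of low genes. Intervals and SEs come from that fit. Alternatives were pseudocounts of 0.5 and 4, a minimum of 50 or none, TMM or quantile normalization, leaving out the batch term, the replicate block, fitting 2 groups only, robust eBayes, edgeR 4.0.16 and DESeq2 1.42.0 on the recovered reads, and each library left out. To see whether the numbers in the titles pair the samples, each group's mean was subtracted and libraries of different groups were correlated over genes. The r was 0.447 to 0.578 for the 9 pairs that share a number and at most -0.0621 for the others, so they do. Batch 1 holds 1 library per group. Results with the block are given for each member whose call they change, and for the pathway genes as counts, with some of them named. The fit was also run on simulated counts that had no batch or replicate effect. That run does not show how the test behaves where replicate numbers pair the samples.

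Exon lengths and positions come from GENCODE vM21 (GRCm38) and upstream sequence from RefSeq (GRCm38.p6). Depth limits precision for Srxn1, the member with the fewest reads (34 to 170 per library). All 10 members are named. Other pathway genes are named where they passed in any comparison or are nearest counterparts of members. The 5 genes of highest correlation are named for Srxn1 and Txnrd1, and 4 of the 5 for Txnip, since some items are not reported here. The members and lists were chosen with earlier results of these data known. Slc7a11, Nqo1, Rrm2, Gpx4, Secisbp2l, Taldo1, Prdx6b and the genes that overlap members were named after their values were seen. Software also included Matplotlib 3.10.9, NumPy 2.4.6, pandas 2.3.3 and Python 3.11.15.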

Additional observations from a re-analysis of the deposited data

How the results depend on the processing

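The 13 alternatives that kept all libraries left the direction of all members as it was for DMF against Ctrl and for DMF + GSH against DMF. The replicate block added Prdx6 to the calls of the first comparison and Prdx1 to those of the second, whether by limma or edgeR, and changed no other member's call. Having no minimum or no batch term lost Prdx6 from the second. Members past the study's threshold numbered 3 instead of 1 in both comparisons with no minimum, with the replicate block by limma or edgeR, and with DESeq2. For DMF + GSH against DMF there were 0 with only the 2 groups compared. Pathway genes called went from 27 to 44 with the replicate block (44 with edgeR) for DMF against Ctrl, and from 25 to 41 with the replicate block (43 with edgeR) for DMF + GSH against DMF. Leaving out each library in turn gave 1 to 8 members called for DMF against Ctrl (0 to 3 past the study's threshold, 0 to 33 pathway genes) and 0 to 7 for DMF + GSH against DMF (0 to 3 and 0 to 28), while the share of all genes passing ran from 0.948% to 32.7% and from 0.0862% to 26.7%. With the replicate block and each library left out, 8 and 7 members were called, 2 to 3 in each passed the study's threshold, 34 to 44 pathway genes were called in the first comparison and 29, 31, 32, 34, 35, 38, 40 or 42 in the second. For DMF + GSH against Ctrl 14 genes passed by edgeR with the replicate block, none of them a member. A fit that leaves out a library has fewer samples. In the first 2 comparisons the share of all genes passing went both down and up in such limma fits without the block. No cause of these shifts was tested.

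Small differences changed sign. For DMF against Ctrl Prdx5 was -0.062 without Ctrl replicate 3 (-0.019 with the replicate block) and -0.047 without DMF replicate 2, and up to 0.13 with other libraries left out. For DMF + GSH against DMF Prdx5 ranged from -0.11 to 0.056 with a library left out, and was 0.00054 without DMF + GSH replicate 1 in either fit and 0.0079 with the block without DMF replicate 2. For DMF + GSH against Ctrl, leaving out a library gave -0.041 to 0.13 for Prdx2, -0.10 to 0.091 for Prdx5, -0.078 to 0.27 for Txnrd1 and -0.22 to 0.20 for Txnip. With the block as well, Prdx2 was -0.0061, Prdx5 -0.063 and Txnip -0.065 without Ctrl replicate 3. Prdx5 was -0.0034 without Ctrl replicate 2 and -0.075 without DMF + GSH replicate 3, Txnrd1 -0.0052 without Ctrl replicate 1 and Txnip -0.016 without DMF + GSH replicate 2. DESeq2 gave -0.0034 for Prdx5 and -0.0050 for Txnip. None of these passed the test.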
